A study of Mus musculus with 15 samples.

Results

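Tnf, Il1a, Il1rn, Il6, Il10, Il15, Csf1, Csf3, Lif and Osm encode cytokines and growth factors that macrophages can secrete. Their mRNA was followed in RAW 264.7 cells, a virus-transformed mouse macrophage line, upon saturation with silica nanoparticles (SNPs). The 10 genes were chosen by name and matched by symbol to the gene identifiers of a table of 57186 genes. Of these 10 genes, 9 had at least 10 counts over the 15 libraries and were among the 19839 genes tested, and Il6 had 0 counts. A mean of at least 1 CPM, the count scaled to library size, was reached by 5 of them, namely Tnf, Il1rn, Osm, Il15 and Csf1. The other 4 tested genes had few counts, with a total over all libraries of 133 for Csf3, 116 for Lif, 73 for Il10 and 22 for Il1a.

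All cells were of the same line and grew in RPMI medium with serum. The SNP100-treated group received nonporous particles of a nominal 100 nm at 50 µg/mL, and the SNP50-treated group received nonporous particles of a nominal 50 nm at 25 µg/mL. The MSNP-treated group received mesoporous particles and the HMSNP-treated group received hollow mesoporous particles, both of a nominal 100 nm and at 200 µg/mL. The Control group received no particles. RNA was taken after 6 h, and each of the 5 groups has 3 libraries. The doses were the highest nontoxic dose of each particle per the methods of the study, so that MSNP and HMSNP are the particles that share a dose. The labels do not say whether the libraries of a group came from separate cultures, so the p-values measure the spread between these samples, which may be technical. The library names of each group also begin with a number of their own, whose meaning the labels do not give, and what it marks and the treatment cannot be told apart.

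Cytokine genes of macrophages are controlled both when they are transcribed and by how long their mRNA lasts. Tnf encodes the inflammatory cytokine TNF, which is made as a membrane protein and shed by a protease. Il1a encodes an agonist of the IL-1 receptor, and Il1rn encodes the antagonist that occupies the same receptor without signalling. Il6, Lif and Osm encode ligands that signal through receptors containing gp130, and Il10 encodes an anti-inflammatory cytokine that acts through STAT3. Il15 encodes a cytokine that supports natural killer cells and memory T cells, Csf1 encodes the growth factor that macrophages need to survive, and Csf3 encodes the growth factor of neutrophils. Many short-lived cytokine mRNAs hold AU-rich elements in the 3′ UTR, at which proteins such as tristetraprolin, the product of Zfp36, bind and start decay.

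The AU-rich stretches of 5 of these genes are shown because AU-rich elements are built on ATTTA, although the letters ATTTA alone do not make a decay element. The letters below were read from GENCODE vM39 transcripts on GRCm39, with each ATTTA in capitals, and each is the stretch of at most 30 bases with the most ATTTA in that 3′ UTR.
Tnf, chr17:35418657-35418683, minus strand: ttATTTAttATTTATTTAttATTTAtt
Lif, chr11:4220479-4220504, plus strand: ctATTTAttactatgtcctATTTAta
Osm, chr11:4190949-4190970, plus strand: atATTTAtaaggcctATTTAta
Csf3, chr11:98593816-98593841, plus strand: ttATTTAtctctATTTAatATTTAtg
Csf1, chr3:107648423-107648443, minus strand: tcATTTAaatatctATTTAaa
The 3′ UTR of Tnf held 8 ATTTA in 764 bases and 5 copies of the longer form TTATTTATT. Lif held 7 ATTTA in 3180 bases with 2 copies of the longer form, and no other gene of the 10 held it. The stretch printed for Lif holds the short form, and its longer form lies elsewhere in the 3′ UTR. Osm held 6 in 1017 bases, Csf3 held 6 in 672 bases, and Csf1 held 4 in 2111 bases. Among the genes not printed, Il15 held 14 in 4317 bases, Il10 held 6 in 706 bases, Il6 held 6 in 427 bases and Il1a held 5 in 2340 bases. The 3′ UTR of Il1rn held 0 ATTTA in 1864 bases and was the one of the 10 without it. For comparison, ATTTA was found in 67.4% and TTATTTATT in 8.34% of 20827 mouse 3′ UTRs.

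Promoters are shown for Il1rn and Csf1, the 2 genes with the largest fitted increase in any comparison with the Control group. Each line gives 250 bases that end just before the start of the canonical transcript on GRCm39, with the motif match in capitals.
Il1rn, chr2:24226615-24226864, plus strand: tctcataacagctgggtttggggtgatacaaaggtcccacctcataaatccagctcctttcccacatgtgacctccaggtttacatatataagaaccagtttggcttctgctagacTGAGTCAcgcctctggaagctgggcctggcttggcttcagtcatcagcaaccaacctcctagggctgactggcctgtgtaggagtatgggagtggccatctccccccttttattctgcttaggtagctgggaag
Csf1, chr3:107667807-107668056, minus strand: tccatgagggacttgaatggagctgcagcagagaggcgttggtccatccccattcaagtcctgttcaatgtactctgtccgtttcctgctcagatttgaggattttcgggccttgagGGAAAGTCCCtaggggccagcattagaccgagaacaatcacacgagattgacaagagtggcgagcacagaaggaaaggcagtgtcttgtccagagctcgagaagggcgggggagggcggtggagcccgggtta
The capitals mark an AP-1 match (TGAGTCA) that lies 134 to 128 bases before the start of Il1rn and a match to the kB consensus (GGAAAGTCCC, read on the opposite strand) that lies 133 to 124 bases before the start of Csf1. The motifs searched on both strands were the kB consensus, AP-1 (TGANTCA), the cAMP response element (TGACGTCA), the E-box (CACGTG) and the STAT motif (TTCNNNGAA). The share of 21770 promoter windows of the same length that held them was 5.16% for the kB consensus, 6.17% for AP-1, 1.69% for the cAMP response element, 6.26% for the E-box and 7.7% for the STAT motif. Matches were also found in the windows of Il6, Il10 and Lif, and the windows of Tnf, Il1a, Il15, Csf3 and Osm held none of these letters. A match describes the sequence and is not a measured binding site.

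Total counts ranged from 29369934 to 42617812 per library, so that 3 counts correspond to 0.0687 to 0.101 CPM. Control replicate 3 stood apart from the other controls. The mean chi-square to it was 174 for Control replicate 1 and 205 for Control replicate 2. Control replicates 1 and 2 also differed from each other more (66.2) than replicates of any treated group did (at most 13.9). Counts of calls against the Control group are therefore given with and without Control replicate 3. All 12 macrophage markers were expressed, with a summed level of 15626 to 21592 CPM. Of the marker lists of other cell types, 4 T cell markers summed to at most 0.397 CPM, 4 B cell markers to at most 0.136 CPM, 4 fibroblast markers to at most 0.0889 CPM and 4 epithelial markers to at most 0.0296 CPM in any library. The 4 neutrophil markers summed to 1.42 to 3.31 CPM, nearly all of it S100a8, with Ly6g at 0. The 3 dendritic cell markers summed to 2.37 to 4.14 CPM, nearly all of it Zbtb46.

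Tnf was the most highly expressed of the 10 genes per exon length in 4 of the 5 groups. On the scale of CPM per kb of merged exons, which allows levels of different genes to be compared, Tnf led in the Control group at 30.4 ± 4.57 (SD, n = 3). Il1rn followed at 9.19 ± 0.312, Osm at 2.08 ± 0.326 and Il15 at 0.598 ± 0.0517. Csf3 at 0.398 ± 0.134, Il10 at 0.201 ± 0.0220, Csf1 at 0.0961 ± 0.0242, Lif at 0.0707 ± 0.0245 and Il1a at 0.0105 ± 0.00914 lay below. In the MSNP-treated group Il1rn stood at 50.6 ± 1.96 CPM per kb, above Tnf at 33.0 ± 2.76 CPM per kb, and in the other 4 groups Tnf stood above Il1rn.

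**Figure D1:**
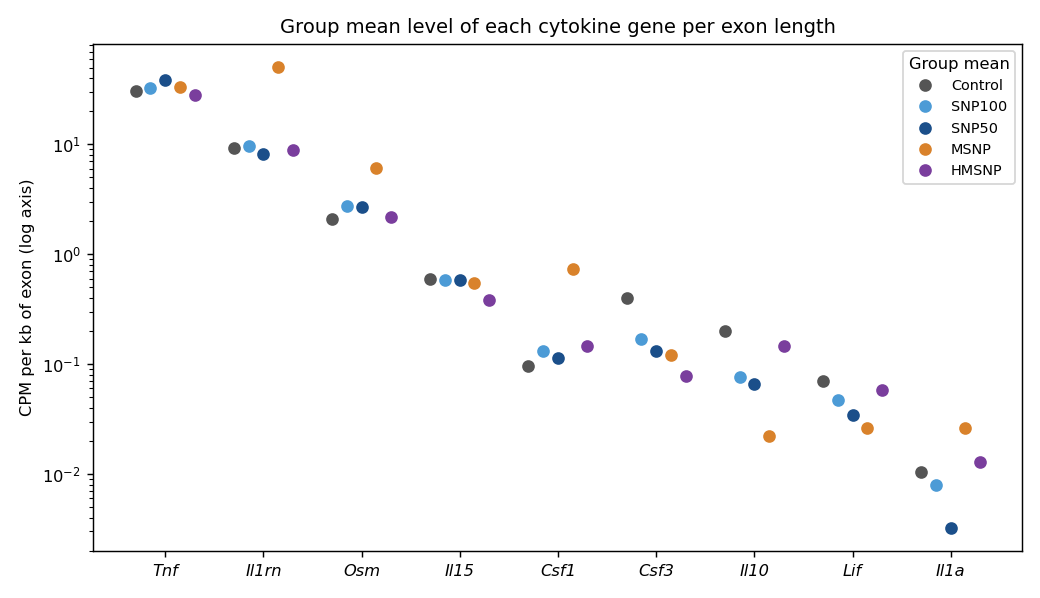
Group mean level of the 9 detected cytokine genes in CPM per kb of merged exons on a log axis, ordered by the mean over the groups, with 1 point for each of the 5 groups of 3 libraries. Il1rn in the MSNP-treated group (50.6 CPM per kb) lies above every other point, and Il1a in the SNP50-treated group (0.00323 CPM per kb) lies lowest.

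The comparison of each treated group with the Control group asked which of these mRNAs changed upon saturation with that particle. MSNP treatment changed 5 of the 9 tested genes (edgeR quasi-likelihood test, adjusted p under 0.05 over all tested genes), against 22.8% of all tested genes. Il1rn, Csf1 and Osm rose, where 11.8% of all tested genes rose, and Il10 and Lif fell, where 11% fell. HMSNP treatment changed 1 of the 9 genes, Il15, which fell, against 5.16% of all tested genes, with 2.46% up and 2.7% down. Without Control replicate 3 the same 5 genes were called for MSNP, against 29.5% of 19611 genes, and Il15 for HMSNP, against 8.66%.

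SNP100 and SNP50 treatment changed 0 of the 9 genes by edgeR and 0 by DESeq2. In all tested genes the share called was 0.912% for SNP100 (0.509% up and 0.403% down) and 1.41% for SNP50 (0.454% up and 0.958% down). At an unadjusted p under 0.05, 2 of the 9 genes passed for SNP100 (Osm and Il10), against 10.5% of all tested genes, and 5 passed for SNP50 (Tnf, Il1rn, Il10, Lif and Osm), against 12%. Without Control replicate 3, 1 gene was called for SNP100 (Osm), against 5.16% of 19611 genes, and 4 were called for SNP50 (Tnf, Il1rn, Lif and Osm), against 18.9%. The 0 calls for both nonporous particles therefore changed with that 1 library.

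HMSNP and MSNP share a nominal diameter and a dose by mass, and the comparison between them asked whether their responses differed. The particles differ in more than the hollow core. The paper describes HMSNP as much less dense and as different in surface composition, and proposes that both could slow uptake. The part of each property in the differences below was not tested. Of the 9 genes, 5 differed, against 20.2% of all tested genes (9.22% higher and 11% lower in the HMSNP-treated group). Il1rn, Csf1, Osm and Il15 were lower and Il10 was higher in the HMSNP-treated group. Without Control replicate 3, which enters the shared estimate of the spread, Lif was called higher as well (log2 1.14, adjusted p = 0.0430), against 33.9% of all genes called. The median fitted log2 fold change of the 9 genes was -0.05 for SNP100, -0.16 for SNP50, 0.12 for MSNP and -0.13 for HMSNP against the Control group, beside medians of -0.02, 0.00, -0.05 and -0.04 over all tested genes. For HMSNP against MSNP the median was -0.57, beside 0.00 over all tested genes. Genes at or under 3 counts in every library of 1 group were then set to their bound, and a gene at that level in both groups was left out. Il1a was left out in this way for SNP100, SNP50 and HMSNP against the Control group. The medians in the same order of comparisons were 0.01, -0.09, 0.09, -0.20 and -0.51. The 4 comparisons with the Control group share its 3 libraries.

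**Figure D2:**
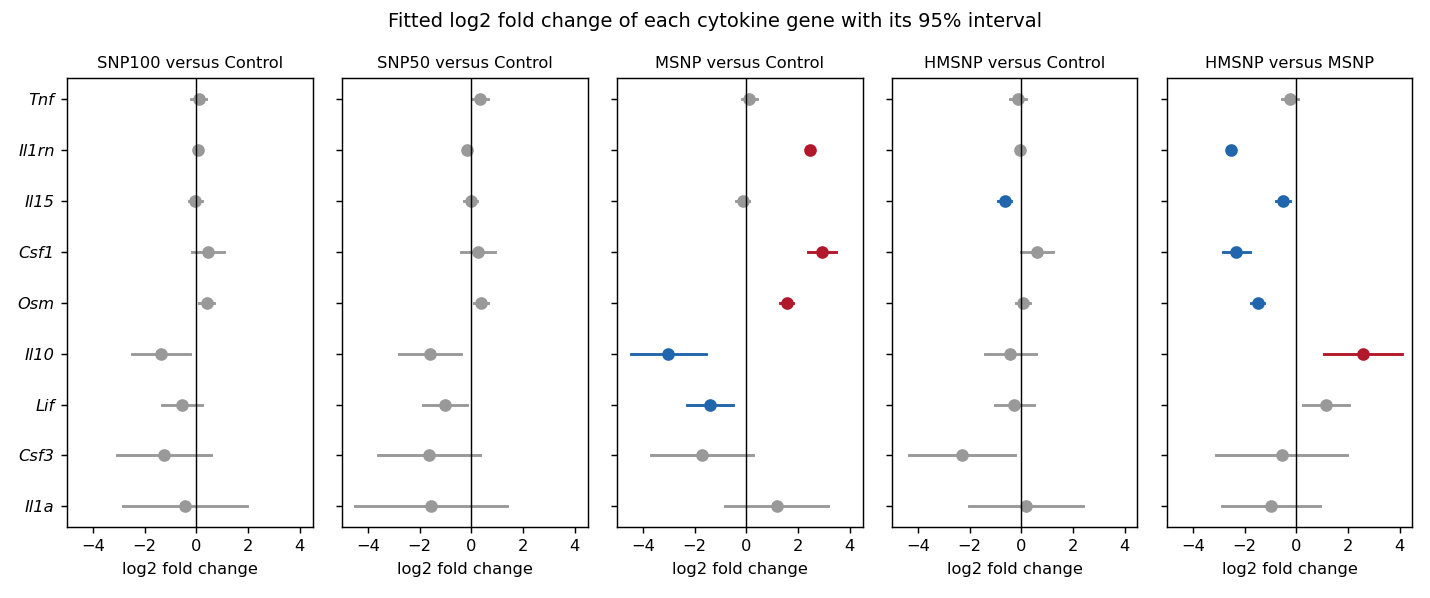
Fitted log2 fold change (x axis) of the 9 tested cytokine genes (rows) in 5 comparisons (panels), with bars for the 95% interval. Red points were called higher and blue points lower at an adjusted p under 0.05, grey points were not called, and Il1rn, Csf1 and Osm lie to the right in the MSNP panel and to the left in the panel of HMSNP against MSNP.

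Tnf (ENSMUSG00000024401, chr17:35418357-35420983, minus strand, GRCm39) was not called in any of the 5 comparisons. The Control libraries held 50.9, 42.0 and 56.9 CPM, and the SNP100 libraries held 46.0, 46.7 and 66.5 CPM. The SNP50 libraries held 67.4, 58.0 and 64.1 CPM, the MSNP libraries 53.0, 50.3 and 59.1 CPM, and the HMSNP libraries 43.1, 44.4 and 49.7 CPM. The 3 SNP50 libraries lay above all 3 controls, whereas the SNP100, MSNP and HMSNP libraries overlapped with the controls. The group means ran from SNP50 through MSNP, SNP100 and Control to HMSNP, and each neighbour in that order overlapped with the next.

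The fitted log2 fold change of Tnf was 0.34 for SNP50 (95% interval 0.04 to 0.64, adjusted p = 0.324). It was 0.09 for SNP100 (-0.21 to 0.39, adjusted p = 0.841), 0.12 for MSNP (-0.18 to 0.41, adjusted p = 0.595) and -0.13 for HMSNP (-0.42 to 0.17, adjusted p = 0.606). Without Control replicate 3, which held the highest Tnf level of the controls, the SNP50 value was 0.44 with an adjusted p of 0.0248. Between HMSNP and MSNP the difference was -0.24 (-0.54 to 0.06, adjusted p = 0.279), and it was called when the fit held only the 6 libraries of the comparison (-0.23, adjusted p = 0.0185). A p that misses the threshold does not show equal levels. In the fit of all 15 libraries, the highest upper limit of Tnf against the Control group was 1.56-fold, for SNP50. The interval without Control replicate 3, where the SNP50 estimate was higher, is not given here. These intervals rest on the spread between these samples, which may be technical.

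Il1rn, the IL-1 receptor antagonist gene (ENSMUSG00000026981, chr2:24226865-24241506, plus strand), rose in the MSNP-treated group. Its product blocks the receptor that the product of Il1a activates. In the Control group the 3 libraries held 50.2, 52.9 and 49.6 CPM and the MSNP libraries held 292, 277 and 271 CPM, with 8832 to 10265 counts each. The SNP100 libraries held 54.1, 52.1 and 54.1 CPM, the SNP50 libraries 45.2, 47.1 and 44.7 CPM, and the HMSNP libraries 47.5, 52.2 and 48.0 CPM. Every MSNP library lay far above the other 12 libraries, and the SNP50 libraries lay below the controls by a small margin. The fitted fold change for MSNP was 5.50-fold (95% interval 5.00 to 6.05, log2 2.46 ± 0.06 SE, adjusted p = 2.63e-12). In the HMSNP-treated group the log2 fold change against the Control group was -0.05 (-0.18 to 0.08, adjusted p = 0.660), and against the MSNP-treated group it was -2.51 ± 0.06 (SE, adjusted p = 6.02e-12). For SNP50 the value was -0.16 (-0.29 to -0.02, adjusted p = 0.306), which was called without Control replicate 3 (-0.18, adjusted p = 0.0304).

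Il1a (ENSMUSG00000027399, chr2:129140291-129152098, minus strand), the agonist of that receptor, was near the limit of detection. The 3 nontreated libraries held 0, 2 and 2 counts, the MSNP libraries 4, 3 and 2 counts and the HMSNP libraries 2, 2 and 1 counts. The SNP100 libraries held 0, 0 and 3 counts and the SNP50 libraries 1, 0 and 0 counts. The ratio of MSNP to Control was 2.36 with an exact counting interval of 0.658 to 10.5, so a change of Il1a was not detectable at this depth. An antisense gene, Gm14023, overlaps Il1a, and whether counting used the strand is not given in the sources used here.

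Osm (ENSMUSG00000058755, chr11:4186420-4191026, plus strand), which encodes the gp130 ligand oncostatin M, rose in the MSNP-treated group. The Control libraries held 3.87, 5.12 and 5.18 CPM and the MSNP libraries 14.2, 13.1 and 14.4 CPM. The SNP100 libraries held 5.85, 6.12 and 6.65 CPM, the SNP50 libraries 6.82, 6.12 and 5.47 CPM, and the HMSNP libraries 4.26, 5.07 and 5.45 CPM. The MSNP libraries lay above all others, the SNP100 and SNP50 libraries overlapped with each other and lay above all 3 controls, and the HMSNP libraries overlapped with the controls. The fitted fold change for MSNP was 2.94-fold (2.44 to 3.55, log2 1.56 ± 0.13 SE, adjusted p = 2.21e-07). The values for SNP100 (log2 0.39, 0.12 to 0.67, adjusted p = 0.245) and SNP50 (log2 0.37, 0.10 to 0.65, adjusted p = 0.226) did not pass, and both passed without Control replicate 3 (0.46, adjusted p = 0.0476, and 0.44, adjusted p = 0.0243). Osm differed between HMSNP and MSNP by -1.50 on the log2 scale (SE 0.12, adjusted p = 3.40e-07).

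Lif (ENSMUSG00000034394, chr11:4207557-4222514, plus strand) lies 16530 bases downstream of Osm on the same strand and also encodes a gp130 ligand. Control libraries held 11, 15 and 8 counts, the SNP100 libraries 5, 7 and 12, the SNP50 libraries 5, 5 and 5, the MSNP libraries 4, 3 and 5, and the HMSNP libraries 9, 9 and 13. The MSNP and SNP50 libraries lay below all 3 controls, and the HMSNP and SNP100 libraries overlapped with them. Lif fell in the MSNP-treated group, opposite in sign to Osm (log2 -1.41 ± 0.41 SE, adjusted p = 0.0217), from 34 counts to 12 counts, a ratio of 0.370 with a counting interval of 0.174 to 0.732. This call was lost in DESeq2 (adjusted p = 0.0518) and in a fit of only the 6 libraries (adjusted p = 0.0872). It was also lost without Control replicate 1 (adjusted p = 0.0523), Control replicate 2 (adjusted p = 0.0709), MSNP replicate 1 (adjusted p = 0.0551) or MSNP replicate 2 (adjusted p = 0.107). For SNP50 the log2 fold change was -1.03 (-1.88 to -0.18, adjusted p = 0.289), called without Control replicate 3 (-1.29, adjusted p = 0.0393).

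Il6 (ENSMUSG00000025746, chr5:30218112-30224979, plus strand), the name-giving ligand of that family, had 0 counts in all 15 libraries. A count of 0 allows a level of up to 0.0687 to 0.101 CPM in a library, and no fold change can be given. The opposite-strand gene Gm42450 overlaps Il6.

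Il10 (ENSMUSG00000016529, chr1:130947581-130952711, plus strand) fell in the MSNP-treated group. The libraries of the Control group held 9, 8 and 11 counts and the MSNP libraries 0, 1 and 2 counts. The SNP100 libraries held 3, 4 and 4 counts, the SNP50 libraries 5, 1 and 2 counts, and the HMSNP libraries 3, 8 and 12 counts. The SNP100, SNP50 and MSNP libraries all lay below the controls, and the HMSNP libraries spread over the range of the controls and below it. The ratio of MSNP to Control was 0.112 (3 against 28 counts, exact counting interval 0.0218 to 0.363), and the edgeR test gave an adjusted p of 0.00412. SNP100 had a ratio of 0.374 (11 against 28 counts, 0.168 to 0.774, adjusted p = 0.343) and SNP50 a ratio of 0.315 (8 against 28 counts, 0.124 to 0.708, adjusted p = 0.230). HMSNP had a ratio of 0.754 (0.415 to 1.36, adjusted p = 0.605) to the Control group and of 6.71 (2.03 to 34.9, adjusted p = 0.0154) to the MSNP-treated group. The last call was lost without MSNP replicate 1 (adjusted p = 0.0576), MSNP replicate 2 (adjusted p = 0.0588) or HMSNP replicate 3 (adjusted p = 0.0778).

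Il15 (ENSMUSG00000031712, chr8:83054226-83129874, minus strand) fell in the HMSNP-treated group. The Control libraries held 4.02, 3.87 and 4.56 CPM and the HMSNP libraries 2.29, 2.63 and 3.02 CPM. The SNP100 libraries held 3.90, 4.11 and 4.02 CPM, the SNP50 libraries 4.32, 3.91 and 3.97 CPM, and the MSNP libraries 4.20, 3.45 and 3.71 CPM. The HMSNP libraries lay below the other 12, and the other groups overlapped with the controls. The fitted fold change for HMSNP was 0.640-fold (0.535 to 0.766, log2 -0.64 ± 0.12 SE, adjusted p = 0.00573). In a fit of only the 6 libraries it was -0.65 with an adjusted p of 0.217. HMSNP was also lower than MSNP (log2 -0.51 ± 0.12 SE, adjusted p = 0.00732). The opposite-strand gene 9530004M14Rik overlaps Il15.

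Csf1 (ENSMUSG00000014599, chr3:107648364-107667806, minus strand), the macrophage growth factor gene, rose in the MSNP-treated group. The nontreated libraries held 0.700, 0.578 and 0.417 CPM (16 to 23 counts) and the MSNP libraries 5.12, 4.21 and 3.53 CPM (119 to 156 counts). The SNP100 libraries held 0.963, 0.463 and 0.886 CPM, the SNP50 libraries 0.473, 0.709 and 0.800 CPM, and the HMSNP libraries 0.882, 0.849 and 0.848 CPM. The MSNP libraries lay above all others, and the HMSNP libraries lay above the controls by a small margin. The fitted fold change for MSNP was 7.60-fold (5.19 to 11.1, log2 2.93 ± 0.26 SE, adjusted p = 5.29e-07). For HMSNP it was 0.61 on the log2 scale (-0.0041 to 1.23, adjusted p = 0.210), and HMSNP was lower than MSNP by log2 -2.31 ± 0.24 (SE, adjusted p = 3.50e-06). The opposite-strand gene Gm40121 overlaps Csf1.

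Csf3 (ENSMUSG00000038067, chr11:98592089-98594458, plus strand), the neutrophil growth factor gene, had a wide spread between replicates. In the Control group the 3 libraries held 21, 12 and 27 counts, the SNP100 libraries 0, 4 and 22, the SNP50 libraries 13, 3 and 1, the MSNP libraries 8, 7 and 2, and the HMSNP libraries 0, 10 and 3. The MSNP and HMSNP libraries lay below all 3 controls, and the SNP100 and SNP50 libraries spread from near 0 into the range of the controls. No comparison was called, with log2 values of -1.25 for SNP100, -1.64 for SNP50, -1.72 for MSNP and -2.29 for HMSNP. These values rest on single libraries. For SNP100 the value was -3.32 without SNP100 replicate 3 and -0.64 without SNP100 replicate 1. For SNP50 it was -3.14 without SNP50 replicate 1 and -1.17 without SNP50 replicate 3, and for HMSNP it was -3.76 without HMSNP replicate 2 and -1.76 without HMSNP replicate 1. For MSNP it lay between -2.11 and -1.31 on leaving out each library. The widest of the 4 SEs was 0.97, for HMSNP (adjusted p = 0.171), where 13 counts stood against 60 in the controls. The opposite-strand gene Gm38985 overlaps Csf3.

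**Figure D3:**
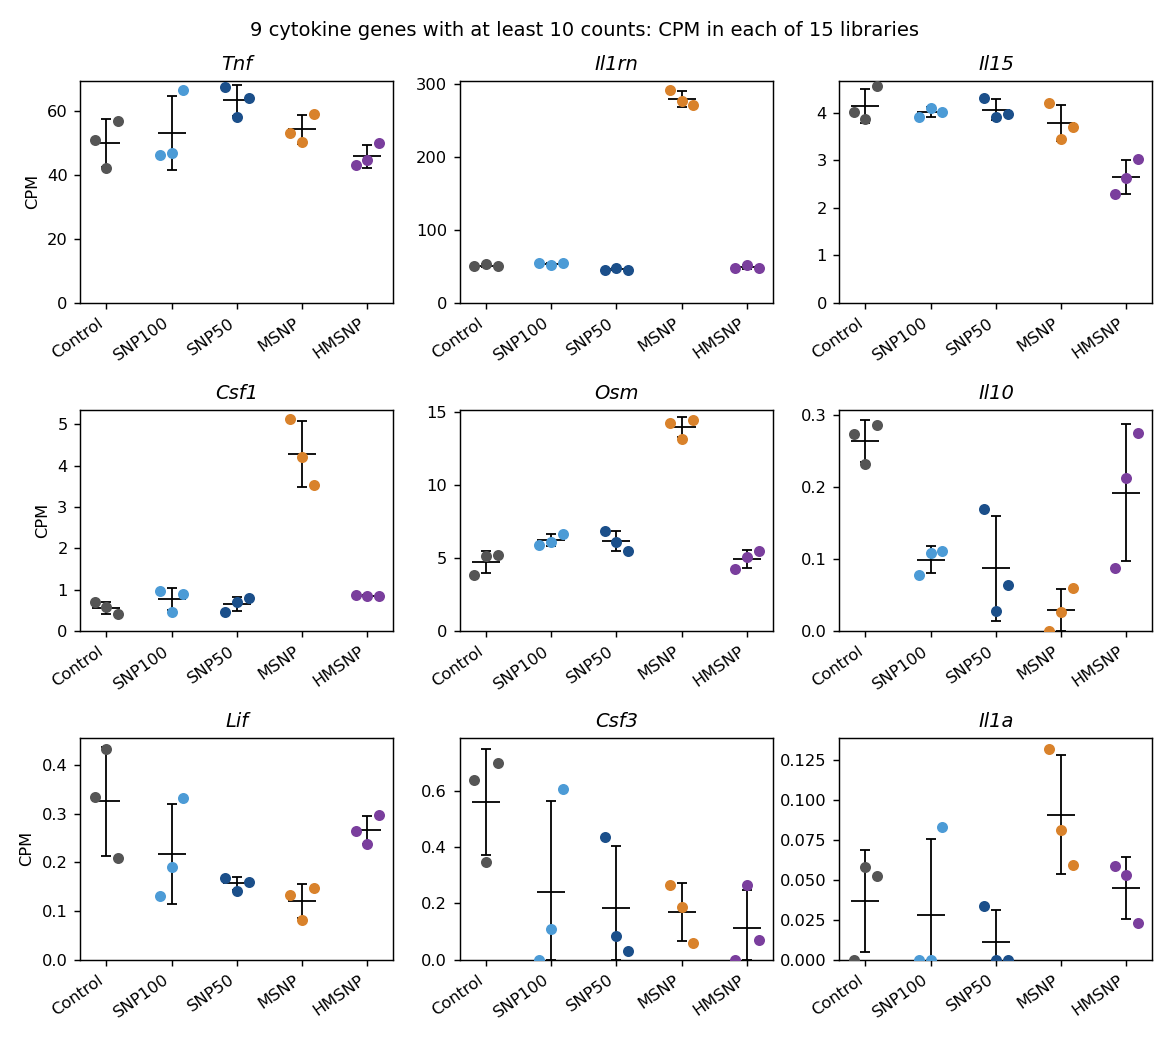
CPM (y axis, from 0) of the 9 detected cytokine genes in each library, with 1 point for each library, a horizontal mark for the group mean and bars for 1 SD, cut at 0. Il1rn, Csf1 and Osm are set apart in the 3 MSNP libraries, Il15 in the 3 HMSNP libraries, and the points of Csf3 spread within groups.

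In bulk RNA from a culture, fewer cells that make a transcript and less transcript per cell cannot be told apart, which touches each of these values. The genes whose log2 CPM followed each member most closely over the 15 libraries were sought among 11540 tested genes with a mean of at least 1 CPM, as a description. For Il1rn they were Ndrg1 (Pearson r = 0.995), Osgin2 (0.994) and Spring1 (0.993), and Ndrg1 went from a mean of 54.5 CPM in the Control group to 269 CPM in the MSNP-treated group. For Csf1 they were Wdtc1 (0.975), Slc39a6 (0.974) and Gm30329 (0.973), and for Osm they were Pla2g2e (0.982), Ctsa (0.978) and Nek6 (0.977). Ctsa encodes a lysosomal carboxypeptidase and went from 930 CPM to 1559 CPM. For Il15 they were Dgat1 (0.945), Nupr1 (0.938) and Fbxo31 (0.928), with Nupr1 at 41.8 CPM in the Control group and 13.6 CPM in the HMSNP-treated group. For Tnf they were Ewsr1 (0.905), Xrcc1 (0.872) and Ranbp3 (0.862). The libraries of a group share their treatment, and the r values of Il1rn, Csf1 and Osm span a gap between 3 MSNP libraries and the other 12.

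The tested receptor genes of these cytokines moved both ways in the MSNP-treated group. Osmr, the oncostatin M receptor gene, had 0 counts in every library and was not tested. Il1r1, the gene of the IL-1 receptor, was near the limit of detection. It held 9 counts in the Control group, 3 for SNP100, 1 for SNP50, 4 for MSNP and 4 for HMSNP. Of 16 listed receptor genes 14 were tested, and 3 rose and 6 fell for MSNP (11.8% and 11% of all tested genes). For SNP100, SNP50 and HMSNP against the Control group 0 were called, where 0.912%, 1.41% and 5.16% of all tested genes were. At an unadjusted p under 0.05 in edgeR, 5 passed for SNP100 and 2 for SNP50, against 10.5% and 12% of all tested genes. For HMSNP 5 passed, all of them higher than in the Control group. The share over all genes was not computed for HMSNP, so this count cannot be set against it. Il10ra, the ligand-binding chain for IL-10, fell from 32.9 ± 0.388 to 12.9 ± 0.649 CPM (SD, n = 3, log2 -1.35, adjusted p = 2.92e-09). Il10rb, its partner chain, rose from 4.10 ± 1.33 to 8.98 ± 1.03 CPM (log2 1.14, adjusted p = 0.000292). Tnfrsf1b, a TNF receptor gene, rose from 72.9 ± 12.6 to 154 ± 6.03 CPM (log2 1.08, adjusted p = 1.29e-06). The other TNF receptor gene, Tnfrsf1a, fell from 118 ± 15.2 to 91.4 ± 2.15 CPM, a call lost in a fit of only the 6 libraries.

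The receptor of CSF-1 itself, Csf1r, fell from 2798 ± 394 to 1789 ± 4.18 CPM (log2 -0.65, adjusted p = 3.12e-05) where its ligand gene Csf1 rose. Il6ra, the IL-6 receptor gene, fell from 127 ± 23.1 to 75.9 ± 1.24 CPM (log2 -0.74, adjusted p = 8.46e-05), although its ligand had 0 counts. Csf3r rose from 4.58 ± 0.926 to 7.49 ± 0.564 CPM (log2 0.71, adjusted p = 0.00176). Between HMSNP and MSNP, 7 receptor genes were higher and 2 were lower in the HMSNP-treated group (9.22% and 11% of all tested genes), among them Il10ra (log2 1.27, adjusted p = 6.94e-09) and Il6ra (log2 1.11, adjusted p = 1.40e-06). With Control replicate 3 left out, 3 receptor genes were up and 7 down for MSNP, where 29.5% of all genes were called, 2 were down for SNP50 (18.9%), 1 was down for SNP100 (5.16%) and 1 was up for HMSNP (8.66%).

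Of 14 listed genes that act on cytokine mRNA after transcription, all tested, 1 rose and 5 fell in the MSNP-treated group, where 11.8% of all tested genes rose and 11% fell. Zfp36, whose product binds AU-rich elements, fell from 43.3 ± 9.84 to 22.5 ± 0.630 CPM (SD, n = 3, log2 -0.95, adjusted p = 6.75e-05). Its paralog Zfp36l1 fell by 0.53 on the log2 scale (adjusted p = 0.000184), and Zc3h12a, which encodes the endonuclease Regnase-1, fell by 0.51 (adjusted p = 0.00805), a call lost without MSNP replicate 1. Mapkapk2, the gene of a kinase that inactivates tristetraprolin, fell by 0.26 (adjusted p = 0.0126), a call lost without MSNP replicate 2 and in a fit of only the 6 libraries. Arid5a, whose product stabilizes Il6 mRNA, rose from 2.28 ± 0.355 to 7.91 ± 0.688 CPM (log2 1.80, adjusted p = 2.98e-07).

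In the HMSNP-treated group Zfp36l1 fell (log2 -0.62, adjusted p = 0.000378, lost in a fit of only the 6 libraries). The other 13 genes of the decay list were not called, where 5.16% of all tested genes were. SNP100 and SNP50 had 0 calls among the 14, where 0.912% and 1.41% of all tested genes were called. At an unadjusted p under 0.05 in edgeR 1 gene passed for each, against 10.5% and 12%. In HMSNP against MSNP 3 were higher and 1 lower (9.22% and 11% of all tested genes), with Zfp36 higher (log2 1.08, adjusted p = 1.94e-05), Zc3h12a higher (0.55, adjusted p = 0.00493), Zc3h12c higher (0.75, adjusted p = 0.0172) and Arid5a lower (-1.78, adjusted p = 3.33e-07) in the HMSNP-treated group. The Zc3h12c call was lost without MSNP replicate 1, MSNP replicate 3 or HMSNP replicate 3. The decay counts without Control replicate 3 were 1 up and 7 down for MSNP (29.5% of all genes called), 2 up and 2 down for HMSNP (8.66%), 2 down for SNP50 (18.9%) and 1 down for SNP100 (5.16%).

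Of 12 genes for shedding and maturation of these cytokines, 11 were tested, and 1 fell for MSNP, where 22.8% of all tested genes were called, and 1 rose for HMSNP, where 5.16% were. Rhbdf1, which encodes an inactive rhomboid that helps the TNF sheddase mature, fell in the MSNP-treated group from 10.4 ± 0.836 to 5.39 ± 0.228 CPM (log2 -0.95, adjusted p = 1.40e-06). Its paralog Rhbdf2 (76.0 ± 8.22 CPM in the Control group and 86.9 ± 6.08 CPM for MSNP) was not called. The sheddase gene Adam17 (290 ± 59.1 and 343 ± 10.9 CPM) was not called either. Capn2, the gene of a calpain, the protease family that cleaves the IL-1α precursor, was higher in the HMSNP-treated group than in the Control group by log2 0.31 (adjusted p = 0.0494), a call kept under 4 of 22 alternative settings and lost on leaving out any 1 treated library or under the replicate block. Between HMSNP and MSNP both were higher in the HMSNP-treated group (Rhbdf1 log2 0.63, adjusted p = 9.86e-05, and Capn2 log2 0.39, adjusted p = 0.00361). SNP100 and SNP50 had 0 calls in this list, where 0.912% and 1.41% of all tested genes were called. At an unadjusted p under 0.05 in edgeR 1 and 2 genes passed, against 10.5% and 12% of all tested genes. On leaving out Control replicate 3 this list held 2 genes down for SNP100 (5.16% of all genes called), 4 down for SNP50 (18.9%), 1 up and 3 down for MSNP (29.5%) and 3 up and 2 down for HMSNP (8.66%).

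JAK-STAT genes carry the signals of the IL-6 family, IL-10 and IL-15. Of 16 listed genes, all tested, 5 rose and 5 fell in the MSNP-treated group, where 11.8% of all tested genes rose and 11% fell. In the HMSNP-treated group 1 of the 16 rose and 0 fell, where 2.46% of all tested genes rose and 2.7% fell. At an unadjusted p under 0.05 in edgeR 8 passed for HMSNP, 6 higher and 2 lower, and the share over all genes was not computed. Pim1, a kinase gene induced by STAT3 and STAT5, rose in the SNP100 (log2 0.60, adjusted p = 0.000684), SNP50 (0.49, adjusted p = 0.00258) and MSNP (1.39, adjusted p = 1.02e-09) groups. Its mean was 17.3 ± 1.09 CPM in the Control group, 26.3 ± 1.27 for SNP100, 24.4 ± 0.690 for SNP50, 45.3 ± 0.985 for MSNP and 17.6 ± 0.702 for HMSNP (SD, n = 3). It was the 1 gene of the list called for SNP100 and for SNP50, where 0.912% and 1.41% of all tested genes were called. Both calls were lost in fits of only the 6 libraries. In the MSNP-treated group Socs1, a feedback inhibitor gene, rose (log2 1.29, adjusted p = 0.00342), and its relative Socs3 fell (-0.85, adjusted p = 0.000112).

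Stat5b rose for MSNP (log2 0.62, adjusted p = 3.94e-05) and for HMSNP (0.33, adjusted p = 0.0318), the latter under 13 of 22 alternative settings and not without SNP100 replicate 1, SNP50 replicate 3 or any 1 MSNP or HMSNP library. Bcl3, the gene of a nuclear IkB protein, fell for MSNP (-0.69, adjusted p = 0.000561). Between HMSNP and MSNP, 5 genes of the list were higher and 4 lower (9.22% and 11% of all tested genes), with Pim1 at -1.36 (adjusted p = 1.45e-09), Socs1 at -1.98 (adjusted p = 0.000163) and Bcl3 at 1.10 (adjusted p = 6.31e-06). With Control replicate 3 left out, the JAK-STAT counts were 1 up and 2 down for SNP100 (5.16% of all genes called), 1 up and 4 down for SNP50 (18.9%), 5 up and 5 down for MSNP (29.5%), and 3 up and 0 down for HMSNP (8.66%).

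Among 50 other secreted cytokines and growth factors 40 were tested, and 8 rose and 8 fell in the MSNP-treated group, where 11.8% of all tested genes rose and 11% fell. Hbegf, an EGF receptor ligand gene, rose from 2 to 3 counts per Control library to 35 to 40 counts per MSNP library (log2 3.86 ± 0.34 SE, adjusted p = 5.82e-07). Tnfsf12, which encodes TWEAK, rose from 10.5 ± 2.94 to 38.9 ± 0.690 CPM (SD, n = 3, log2 1.89, adjusted p = 5.69e-08). Igf1 rose from 186 ± 12.3 to 383 ± 28.5 CPM (log2 1.05, adjusted p = 5.03e-08), and it also rose in the HMSNP-treated group, to 287 ± 19.9 CPM (0.63, adjusted p = 0.000116, lost in a fit of only the 6 libraries). Pdgfa fell from 110.2 ± 29.0 to 40.2 ± 1.24 CPM for MSNP (log2 -1.45, adjusted p = 1.24e-06) and to 42.4 ± 2.10 CPM for HMSNP (-1.38, adjusted p = 2.55e-05).

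Vegfa fell in the HMSNP-treated group, from 54.0 ± 5.60 to 31.1 ± 1.74 CPM (SD, n = 3, log2 -0.80, adjusted p = 2.56e-05), and was not called for MSNP (0.14, -0.03 to 0.31, adjusted p = 0.220). It differed between HMSNP and MSNP by -0.94 (adjusted p = 4.05e-07). Tnfsf13b, the gene of the B cell factor BAFF, fell for MSNP (-1.14, adjusted p = 3.83e-06) and for SNP100 (-0.54, adjusted p = 0.0376), the latter under 10 of 22 alternative settings and not under the replicate block, without any 1 SNP100 or SNP50 library, or without MSNP replicate 2, HMSNP replicate 2 or HMSNP replicate 3. In all, 5 genes of the list rose and 3 fell for HMSNP (2.46% and 2.7% of all tested genes). In HMSNP against MSNP 9 were higher and 6 lower (9.22% and 11%). For SNP100 Tnfsf13b was the 1 call, where 0.912% of all tested genes were called. For SNP50 0 were called, where 1.41% were, and 6 passed at an unadjusted p under 0.05 in edgeR, against 12%. Without Control replicate 3, 38 of these genes were tested, with 2 up and 2 down for SNP100 (5.16% of all genes called), 3 up and 3 down for SNP50 (18.9%), 9 up and 8 down for MSNP (29.5%) and 6 up and 4 down for HMSNP (8.66%).

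**Figure D4:**
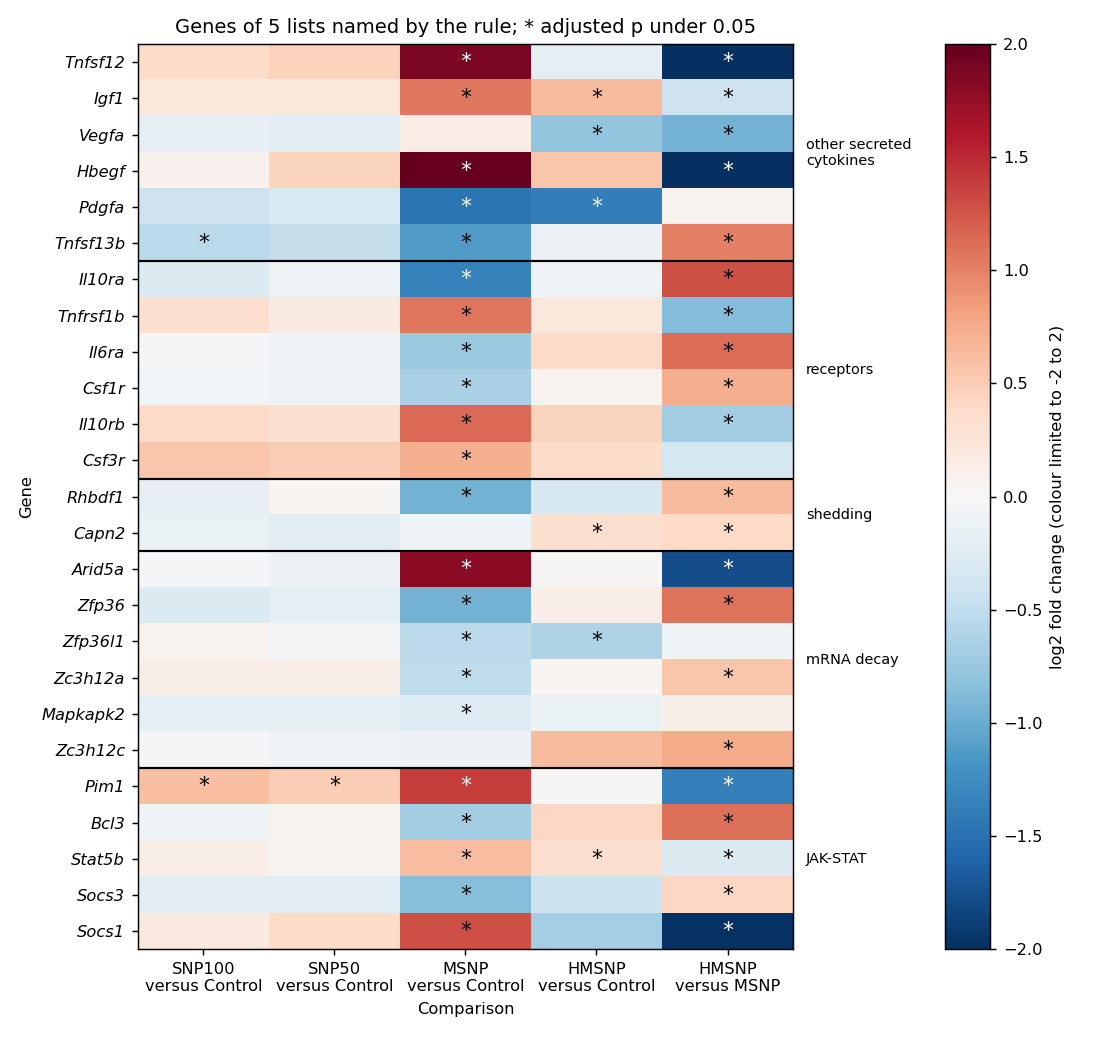
Log2 fold change (colour, limited to -2 to 2) of the genes of 5 lists (rows, at most 6 with the smallest adjusted p in each list) in 5 comparisons (columns), with an asterisk where the adjusted p was under 0.05. Arid5a, Tnfsf12 and Hbegf are red for MSNP and blue for HMSNP against MSNP, and Pim1 is marked in 3 of the 4 columns against the Control group.

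The study also read a Th1/Th2 protein panel in the culture medium, which shares TNF and IL-6 with the genes described here and further holds interferon gamma, IL-12 and the Th2 cytokines encoded by Il4 and Il5. The protein readings were not used here. Of the 7 genes that encode the panel, Tnf was the one with enough counts to test. Ifng, Il4, Il6 and Il12a had 0 counts in every library. Il5 held 2 counts in 1 HMSNP library, and Il12b held 1 count in 1 Control library.

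Of the 12 macrophage markers, 5 rose (Cd33, Cd68, Cd80, Lgals3 and Mrc1) and 5 fell (Cd14, Csf1r, Fcgr1, Itgam and Lyz2) in the MSNP-treated group. The shares of all tested genes were 11.8% and 11%, and Adgre1 and Spi1 were not called. For HMSNP 1 rose (Cd80), where 2.46% of all tested genes rose, and for SNP100 1 rose (Cd33), where 0.509% rose. For SNP50 0 were called, where 1.41% were, and 4 passed at an unadjusted p under 0.05 in edgeR, against 12%. Cd80 was called for MSNP and HMSNP under all 22 alternatives. The Cd33 call for SNP100 was made under 12 of 22 alternative settings, and it was lost in a fit of only the 6 libraries and without Control replicate 1, SNP100 replicate 1 or 2, SNP50 replicate 1 or 3, HMSNP replicate 1 or any 1 MSNP library. Leaving out Control replicate 3, the marker counts were 2 up and 1 down for SNP100 (5.16% of all genes called), 4 up and 2 down for SNP50 (18.9%), 5 up and 5 down for MSNP (29.5%) and 2 up and 1 down for HMSNP (8.66%), and 1 neutrophil marker was up for SNP50. Cd14, a coreceptor for lipopolysaccharide, had a mean of 975 CPM in the Control group and 567 CPM for MSNP, and Lgals3, the galectin-3 gene, had 869 and 2053 CPM. The part of these shifts in the cytokine values was not tested. The T cell marker Cd4 was also called for MSNP at a mean of 0.330 CPM, against 0.0391 CPM in the Control group, with and without Control replicate 3, with Cd3e at 0 in the MSNP libraries and Cd8a at 0 in all libraries.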

How the data were processed

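RNA-sequencing libraries of RAW 264.7 cells were compared, 3 in each of 5 groups. The authors prepared directional poly(A) libraries, sequenced them in pairs, mapped the reads to GRCm39 and deposited raw counts, a whole number for each gene and library, not normalized and with replicates kept apart. The submitters' processing notes list cutadapt 1.16, STAR 2.7.9a and featureCounts 1.6.3, without order or role. The annotation release, the strand setting and whether reads or read pairs were counted are not given in the sources used here. Groups came from the labels, and doses and diameters from the methods of the study.

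Symbols, positions and lengths came from GENCODE vM39 on GRCm39, which held 56630 of the 57186 identifiers. Of these identifiers 30400 had 0 counts in every library. Genes with at least 10 counts over the 15 libraries were tested in R 4.3.3 with edgeR 4.0.16 (TMM, one model of all 15 libraries, no block, quasi-likelihood F test, Benjamini-Hochberg adjustment over all 19839 tested genes, 2-sided, threshold 0.05). SEs and 95% intervals come from the fold change and its F statistic, and counting intervals for low genes are exact and cover counting error only. CPM were scaled by TMM. Total counts of 29369934 to 42617812 per library limit what can be seen at a level of 3 counts. The pipeline was tested on simulated data for MSNP against Control, where 198 of 200 genes changed 2-fold were called among 19497 genes, with 3 false calls. The changed genes were drawn only from genes with higher counts, a range that leaves out Il1a, Il10, Lif and Csf3. The simulation also held no outlying control, so it does not show how well changes of such genes are found in these libraries.

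The 10 genes, the other gene lists and the tests were chosen with earlier results of these data known. The lists cover other secreted cytokines and growth factors, receptors of the members, their shedding and maturation, cytokine mRNA decay and translation, JAK-STAT genes, panel genes, macrophage markers and markers of 6 other cell types. All 10 genes are named, and of the other lists at most 6 called genes with the smallest adjusted p, the defining markers and the panel genes. For 1 gene that this rule names, the result is not reported here. Outside this rule, Adam17, Rhbdf2, Osmr, Il1r1 and Tnfrsf1a were named, and Cd14 and Lgals3 were given with CPM, after their values were seen. Alternatives were RLE scaling, DESeq2 1.42.0, filterByExpr, no filter, a block for the replicate number, a fit of the 6 libraries compared, an offset that removes the trend with transcript length, and leaving out each library. Same-numbered samples did not pair: of 15 correlations of their deviations from the group means, -0.52 to 0.57, 7 were above 0.1. Figures were drawn with matplotlib 3.10.9.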

Additional observations from a re-analysis of the deposited data

How the results depend on the processing

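Of 977 log2 fold changes of single cytokine genes under the alternatives, 947 kept their direction and their side of the threshold, 10 lost and 8 gained a call, and 12 changed sign, none of the 12 being called. Of the 22 settings, 15 leave out 1 library, often from a group outside the comparison, which can hardly move the fold change. Most of the values were also not called in the main fit, so the 947 is not a measure of how firm the calls are. For SNP100 the number of cytokine genes called ranged from 0 to 1 on leaving out each library, and for SNP50 from 0 to 4, with the highest value of each without Control replicate 3. The 1 call for HMSNP (Il15) became 0 in a fit of only the 6 libraries of the comparison, which leaves fewer samples to estimate the spread. On leaving out each library, the log2 fold change of Tnf for SNP100 ranged from -0.11 to 0.19, Il1a for SNP100 from -3.54 to 0.13, Il15 for SNP100 from -0.096 to 0.020, Il15 for SNP50 from -0.079 to 0.037, Il1a for HMSNP from -0.29 to 0.60, Lif for HMSNP from -0.52 to 0.018 and Osm for HMSNP from -0.037 to 0.18. With the transcript length offset Tnf for HMSNP was 0.088 in place of -0.13, and the cause was not tested. The calls of Il1rn, Csf1 and Osm for MSNP held under all 22 alternatives. Il10 for MSNP held under all 21 that tested it, and filterByExpr did not keep it for testing. With the replicate block, 0, 0, 5, 1 and 5 cytokine genes were called for SNP100, SNP50, MSNP, HMSNP and HMSNP against MSNP, the same numbers as without it, and in 6 of 15 same-numbered pairs, 3 in each comparison, the sample correlated best with its own number. The control libraries recur in 4 of the 5 comparisons. Depth limits Il6, Il1a, Il10, Lif and Csf3, for which single counts move the values.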
